A study of Mus musculus with 6 samples.

Results

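The genes of fatty acid, triglyceride and cholesterol synthesis are described here across 6 mouse RNA sequencing libraries. The 38 members were taken by gene symbol from the 19330 entries of the deposited expression table, and all 38 were found and tested. Of the 6, 4 came from lines of induced pluripotent stem cells (iPSC). Lines 3 and 7 are controls, and the labels tie lines 5 and 13 to palmitoylcarnitine (PC iPSC). The remaining libraries are 1 from embryonic stem cells (ESC) and 1 from mouse embryonic fibroblasts (MEF). ESC and all 4 iPSC lines were grown with leukemia inhibitory factor on a layer of fibroblasts arrested with mitomycin C, and MEF in serum medium. The ESC library is titled B6 with the source name B6/blu. No other genotype, strain, age, reprogramming method, or dose and time of palmitoylcarnitine is given in the sources used here. The labels do not say whether the lines of a group arose in separate cultures or animals. The p-values therefore reflect the spread among these samples alone, which may be technical.

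Library totals ran from 26.51 M to 27.99 M assigned reads, and the members took between 0.412% and 0.480% of them. Each member had between 28 and 23205 reads in a library. Markers were compared with the labels. The 8 pluripotency markers summed to 1843 RPKM (reads scaled by gene length and by library total) in ESC, 1569 to 1793 in the iPSC lines and 245.9 in MEF. The MEF library held 157.7 RPKM of Pou5f1 and 88.2 of Sox2, although Zfp42, Esrrb, Dppa4, Utf1 and Tdgf1 were all at 0 there and Nanog had 0.0482 RPKM. The 14 fibroblast markers, none at 0 in any library, summed to 8469 RPKM in MEF, 663.5 in ESC, 1039 and 1639 in control iPSC 3 and 7, and 1768 and 1517 in PC iPSC 5 and 13. The 6 macrophage markers summed to 550.7 RPKM in MEF, of which Lyz2 gave 463.3, and to 67.5 in ESC and 12.4 to 18.4 in the lines. Cd68 gave 55.2 of the sum in ESC and 7.77 to 13.8 in the lines, and Lyz2 11.55 and 3.80 to 6.27. Ptprc, Csf1r, Adgre1 and Itgam were at 0.0643 to 0.379 RPKM in ESC and 0 to 0.410 in the lines. The 9 adipocyte markers summed to 46.6 RPKM in MEF and 6.38 to 12.2 elsewhere. In MEF, Fabp4 gave 21.7, Lpl 13.8 and Cebpa 11 RPKM of the sum. The other 6, among them Adipoq, Plin1 and Pparg, were at 0 there. Elsewhere Fabp4 was at 1.29 to 1.94 RPKM, Lpl at 2.91 to 8.63 and Cebpa at 0.888 to 2.08. The part of these other cell types in the differences below was not tested.

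Cells build fatty acids from acetyl-CoA, which ATP citrate lyase (Acly) makes from citrate. Acetyl-CoA carboxylase and fatty acid synthase turn it into palmitate, which desaturases and elongases modify and acyltransferases attach to glycerol to form phospholipids and triglycerides. The same acetyl-CoA enters the mevalonate pathway and leaves it as cholesterol. Many of these genes are activated by the SREBP transcription factors, encoded by Srebf1 and Srebf2. Scap escorts the SREBP proteins from the endoplasmic reticulum for cleavage, and Insig1 holds them back when sterols are plentiful. Palmitoylcarnitine is the form in which palmitate is carried into mitochondria for oxidation.

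Start site sequences were compared because the members share a set of known activators. RefSeq promoter windows on GRCm38 (mm10), from 250 bases before to 50 after a transcription start, were matched for 30 of the 38 members and gave 39 windows. Both strands were searched for 4 motifs: the sterol response element of the low density lipoprotein receptor promoter (TCACNCCAC), the CCAAT box bound by NF-Y, the E-box CACGTG and the Sp1 motif GGGCGG. No motif contains another, but GGGCGG matches can overlap each other. The sterol response element was found in 1 of 39 windows, 2.56%, against 1.24% of all 32851 windows of that length, and that window belonged to Hmgcs1. The CCAAT box was in 24 of 39 windows, 61.5%, against 37.4% of all windows. The E-box was in 7 windows of 6 genes, 17.9%, against 7.15% of all windows and 8.9% of the windows of genes in the expression table. GGGCGG was in 69.2% against 35.7% of all windows and 53.2% of the 18700 windows of genes in the expression table. A match describes the letters and is neither a binding site nor a cause. Only these exact letters were searched, with N as any base. A window without a match may therefore still hold a variant of the motif.

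The 6 sequences below are stretches of such windows that hold matches, ending at the base before the start. They come from the member with a match to the sterol response element and the 4 members that passed a test between iPSC and ESC. The last is from the member that differed most within the iPSC lines. Each is written 5′ to 3′ on the strand of its gene, and capitals mark the sterol response element (Hmgcs1 only), CCAAT or its reverse complement ATTGG, and GGGCGG or its reverse complement CCGCCC.
Hmgcs1, chr13:119690166-119690350, plus strand: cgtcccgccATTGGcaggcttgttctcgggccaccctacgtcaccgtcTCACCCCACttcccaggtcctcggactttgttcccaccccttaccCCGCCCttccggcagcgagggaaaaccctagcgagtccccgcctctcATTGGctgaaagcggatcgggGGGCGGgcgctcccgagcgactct
Srebf2, chr15:82147124-82147268, plus strand: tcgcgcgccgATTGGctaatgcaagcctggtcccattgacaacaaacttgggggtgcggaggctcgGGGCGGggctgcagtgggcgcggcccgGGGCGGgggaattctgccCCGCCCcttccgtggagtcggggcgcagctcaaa
Srebf1, chr11:60210472-60210546, minus strand: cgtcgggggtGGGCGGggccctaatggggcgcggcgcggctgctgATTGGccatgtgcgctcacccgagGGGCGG
Dhcr7, chr7:143830019-143830213, plus strand: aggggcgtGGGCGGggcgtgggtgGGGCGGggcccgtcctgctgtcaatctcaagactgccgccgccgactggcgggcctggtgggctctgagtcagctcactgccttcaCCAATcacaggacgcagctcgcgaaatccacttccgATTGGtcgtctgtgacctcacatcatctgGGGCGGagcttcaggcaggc
Ebp, chrX:8193513-8193692, minus strand: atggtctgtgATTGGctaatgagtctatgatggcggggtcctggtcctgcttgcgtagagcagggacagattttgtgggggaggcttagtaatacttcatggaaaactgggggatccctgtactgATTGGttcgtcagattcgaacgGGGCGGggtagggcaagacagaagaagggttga
Agpat9, chr5:100846139-100846228, plus strand: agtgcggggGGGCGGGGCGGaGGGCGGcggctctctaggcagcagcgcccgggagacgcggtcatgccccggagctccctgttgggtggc
The first 5 hold both CCAAT and GGGCGG. Srebf1 and Dhcr7 have 3 windows each, and the window shown is the only one of its gene with both motifs. For these genes the shared motifs follow from the choice of window. The Agpat9 stretch holds GGGCGG matches and no CCAAT. The gene is named Agpat9 in the table and Gpat3 in RefSeq.

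All 38 members were above 1 RPKM in ESC and in each iPSC line, and 35 were above it in MEF. Because RPKM is scaled by gene length, levels can be set side by side between genes. Over the 4 iPSC lines the highest mean levels were those of the stearoyl-CoA desaturase Scd2, 127.5 ± 5.56 RPKM (SD, n = 4), Acly, 99.8 ± 17.1, and farnesyl diphosphate synthase (Fdps), 79.0 ± 3.42. The next in order were Srebf2 at 59.1 ± 3.28, the palmitate elongase Elovl6 at 56.2 ± 3.70 and Hmgcs1 at 51.9 ± 7.97, with overlapping ranges. Srebf2 was above Hmgcs1 in each line, while the place of Elovl6 changed from line to line. The lowest levels were those of the triglyceride enzyme Dgat2, 2.55 ± 0.510, and of Agpat9, 2.99 ± 2.70, and the order of these 2 was within the spread. Scd2 was the highest member in each iPSC line and in MEF, and Acly in ESC. Summed over all members, the level was 1202 RPKM in ESC, 1073 in MEF, 1074 and 1052 in control iPSC 3 and 7, and 1208 and 1064 in PC iPSC 5 and 13. The RPKM of all genes summed to less in MEF than in any other library. As a share of that total, the members made up 0.295% in MEF, 0.247% in ESC and 0.221% to 0.259% in the lines.

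**Figure D1:**
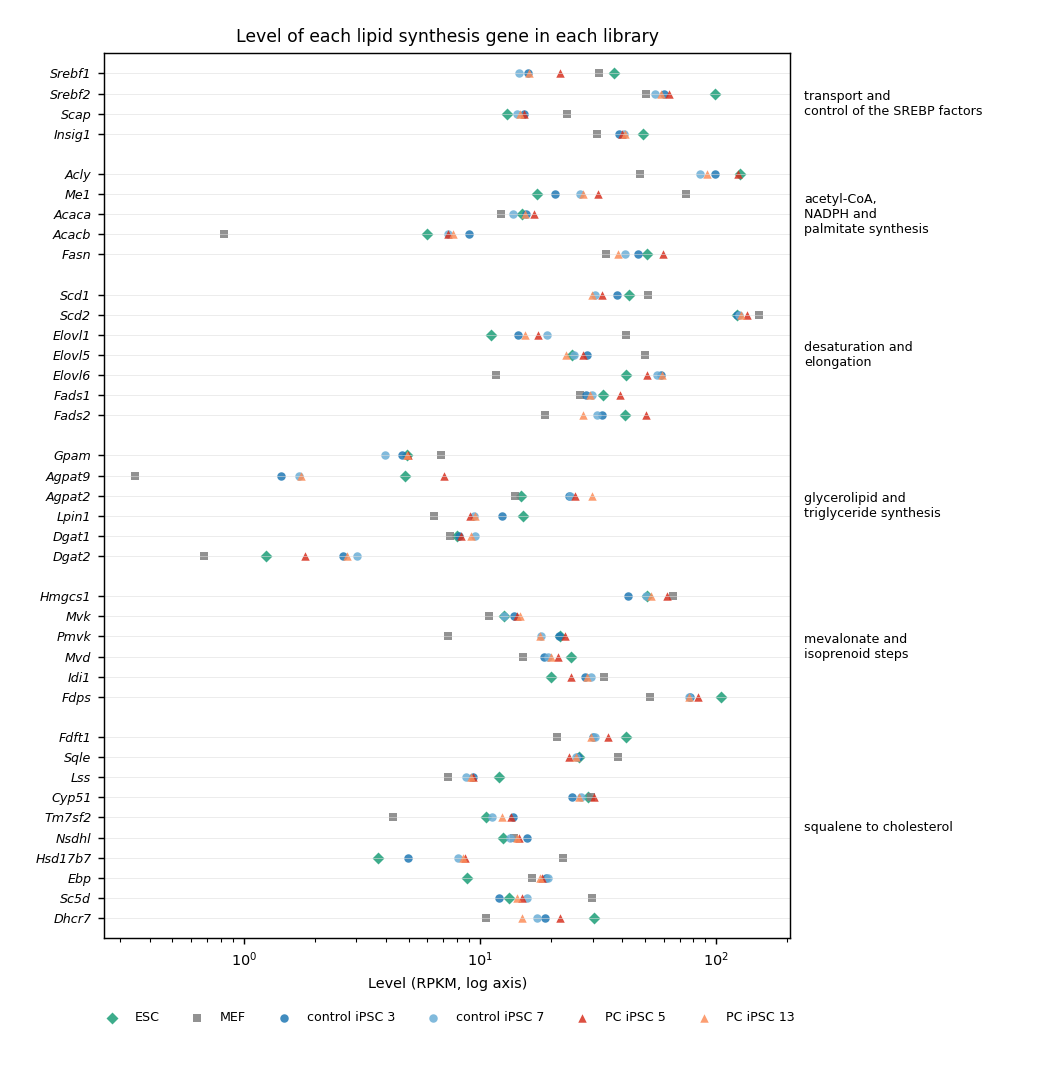
Level of each member (RPKM, log axis) in each of the 6 libraries, grouped by role in the pathway. The 4 iPSC lines lie close together for most genes, while PC iPSC 5 stands to the right of the other lines for Agpat9 (7.03 RPKM) and MEF stands far to the left for Acacb (0.828 RPKM) and Agpat9 (0.348 RPKM).

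The first comparison asked whether iPSC associated with palmitoylcarnitine differ from control iPSC. No member passed the test. Across all 16435 genes tested edgeR called none (0% of genes) and 385 genes had an unadjusted p below 0.05, among them 1 member. DESeq2 likewise called none, with 248 genes below 0.05 unadjusted. The log2 difference, PC minus control, was positive in 25 of 38 members and in 8147 of 16435 genes. Its median was 0.04 over the members against 0.00 over all genes. Both PC lines were above both control lines in 10 members and below them in 1, against 2669 and 2499 of all genes. Together this is 11 of 38 members, while 31.4% of all genes had groups that did not overlap. Whether the members split by direction otherwise than all genes was not tested. The 95% interval of a typical member, not adjusted for the number of genes, reached 1.28-fold to either side. Smaller differences could not be resolved. Larger ones could also miss the adjusted threshold, as the 2.71-fold difference of Agpat9 did.

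Neither SREBP gene passed the test. Srebf1 was at 21.8 RPKM in PC iPSC 5, 16.1 in PC iPSC 13, 15.9 in control iPSC 3 and 14.7 in control iPSC 7. The PC lines were higher, PC iPSC 13 by a small margin, and the log2 difference was 0.28 (SE 0.16, edgeR adjusted p = 0.963). Srebf2 was at 62.9 and 58.2 RPKM in PC iPSC 5 and 13, against 60.3 and 55.1 in control iPSC 3 and 7. Its groups overlapped. The escort Scap was between 14.4 and 15.3 RPKM and its retention partner Insig1 between 38.8 and 41.2 RPKM in the 4 lines, the narrowest ranges among the 4 control genes.

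Among the palmitate enzymes, Acly was at 124.0 RPKM in PC iPSC 5, 91.4 in PC iPSC 13, 98.8 in control iPSC 3 and 85.1 in control iPSC 7. Fasn, the synthase itself, was at 59.3, 38.4, 46.7 and 41.2 RPKM in the same order. For both genes PC iPSC 5 was the highest line and PC iPSC 13 lay among or below the controls. Acaca, the cytosolic carboxylase, was at 16.9, 15.4, 15.7 and 13.7 RPKM, again with overlapping groups. Malic enzyme (Me1), a source of NADPH, was at 31.5 and 27.2 RPKM in PC iPSC 5 and 13 against 20.8 and 26.4 in control iPSC 3 and 7. Both PC lines were above both control lines, by a log2 difference of 0.29 (SE 0.16, adjusted p = 0.963). Hmgcs1, the HMG-CoA synthase that opens the mevalonate pathway, was at 61.8 and 53.2 RPKM in PC iPSC 5 and 13 against 42.5 and 50.4 in control iPSC 3 and 7. These groups did not overlap either, with a log2 difference of 0.28 (SE 0.15, adjusted p = 0.963).

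The largest difference was that of Agpat9, a glycerol-3-phosphate acyltransferase that starts glycerolipid synthesis. It was at 7.03 RPKM (561 reads) in PC iPSC 5, 1.75 (137 reads) in PC iPSC 13, 1.43 (114 reads) in control iPSC 3 and 1.72 (131 reads) in control iPSC 7. PC iPSC 5 stood alone, and PC iPSC 13 lay just above the controls. The log2 difference between groups was 1.44 (SE 0.58, 95% interval 0.07 to 2.82, adjusted p = 0.963). Leaving out PC iPSC 5 gave 0.16. Leaving out control iPSC 7 gave 1.58, past the threshold (adjusted p = 0.0156). Exons of Agpat9 share 1052 bases with an antisense gene, and no source used here states whether strand was counted. The other glycerol-3-phosphate acyltransferase among the members, Gpam, was between 3.95 and 4.96 RPKM in all 4 lines.

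Hsd17b7, a sterol reductase late in cholesterol synthesis, was at 8.65 and 8.44 RPKM in PC iPSC 5 and 13 and at 4.96 and 8.11 in control iPSC 3 and 7. Only control iPSC 3 was apart, and the log2 difference was 0.36 (SE 0.23, adjusted p = 0.963). Control iPSC 3 was also the line with the lowest sum of fibroblast markers, 1039 RPKM, and Hsd17b7 was at 22.4 RPKM in MEF. The part of fibroblast RNA in this difference was not tested. The 3 members of largest negative difference were Dgat2, with −0.32 (SE 0.32), the phosphatidate phosphatase Lpin1, with −0.25 (SE 0.16), and the desaturase Scd1, with −0.16 (SE 0.15). Dgat2 was at 1.83 RPKM in PC iPSC 5, 2.73 in PC iPSC 13, 2.62 in control iPSC 3 and 3.02 in control iPSC 7, so that the low value was that of 1 line. Lpin1 was at 12.4 RPKM in control iPSC 3 and at 9.12, 9.56 and 9.45 in PC iPSC 5, PC iPSC 13 and control iPSC 7. Scd1 was at 37.98 RPKM in control iPSC 3 and at 32.8, 29.7 and 30.8 in the same 3 lines. In both genes control iPSC 3 was the highest of the 4 lines.

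Further genes of these pathways were counted in lists that hold no member. By edgeR none passed among 21 genes of fatty acid synthesis and activation, 13 of glycerolipid synthesis, 12 of cholesterol synthesis and uptake and 12 regulators, and 1 of them, a regulator, had an unadjusted p below 0.05.

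**Figure D2:**
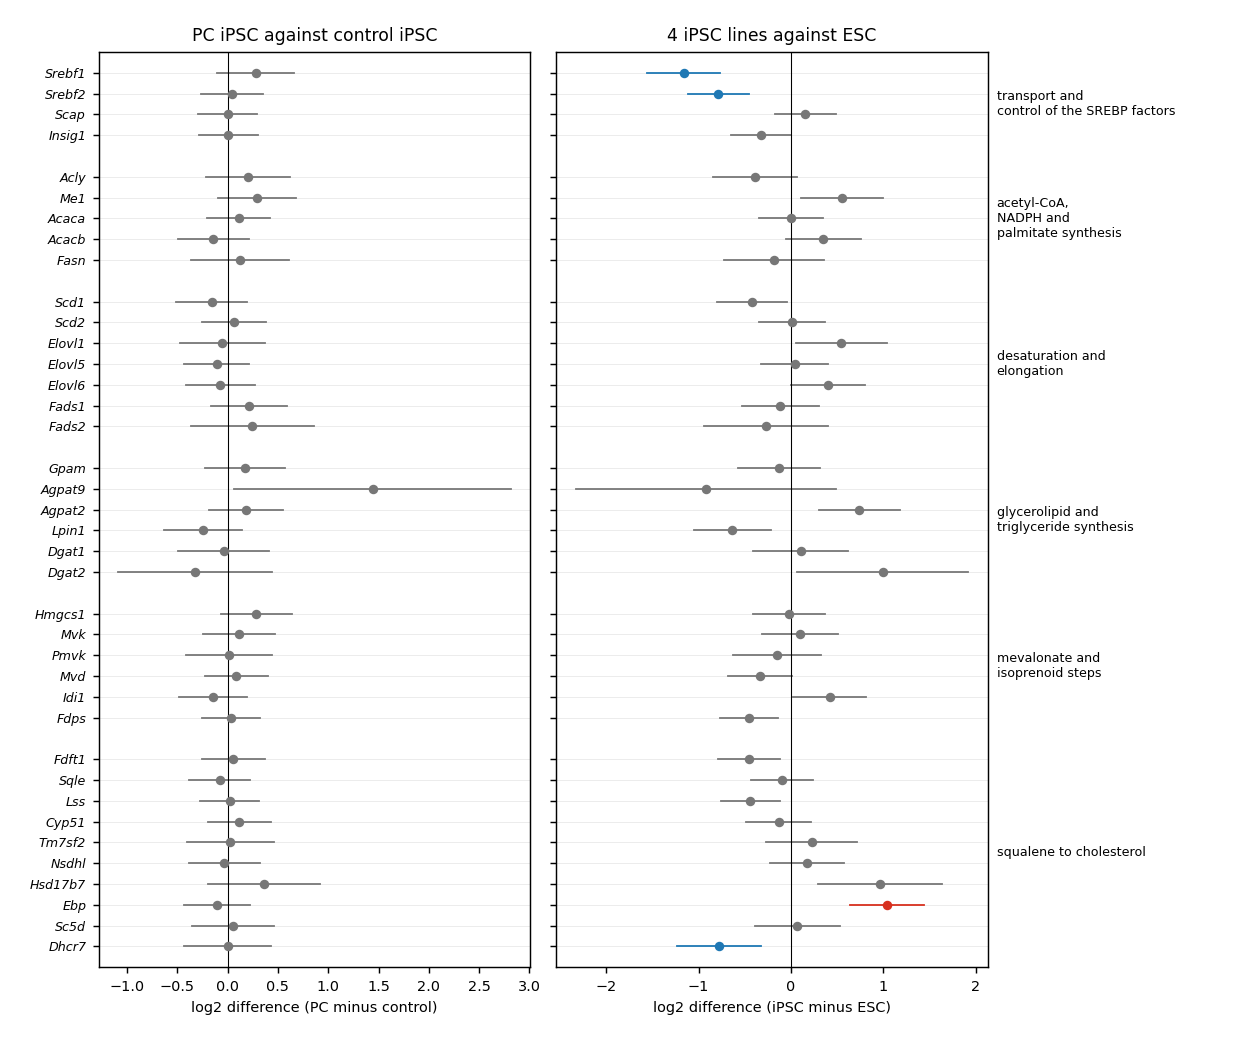
log2 difference of each member between PC and control iPSC (left, PC minus control) and between the 4 iPSC lines and ESC (right, iPSC minus ESC), with 95% intervals from the edgeR fit; red marks members called higher and blue lower at an adjusted p of 0.05. No member is coloured on the left, and on the right Srebf1 (−1.16), Srebf2 (−0.79) and Dhcr7 (−0.78) are blue and Ebp (1.04) is red.

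PC iPSC 5 differed from the other 3 lines along chromosome 11, which carries 4 members: Srebf1, Acly, Acaca and Fasn. Over 1352 tested genes of that chromosome the median log2 difference of PC iPSC 5 from the mean of the other 3 lines was 0.42, and 89.4% of them were higher. The corresponding medians of all other chromosomes lay between −0.08 and 0.01. Srebf1 was higher in PC iPSC 5 by 0.43, Fasn by 0.44, Acly by 0.38 and Acaca by 0.13. Against the chromosome, 52.7% of its genes had a smaller difference than Srebf1, 54.4% than Fasn, 43.5% than Acly and 16.1% than Acaca. The first 3 were near the chromosome's median and Acaca was below it. DNA copy number was not measured. The other 34 members had a median of 0.06 in PC iPSC 5, and 20 of them were higher there.

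In PC iPSC 5, 3 of the 38 members differed from the mean of the other lines by more than 0.5 on the log2 scale, while 22.7% of all genes did. Agpat9 on chromosome 5 was higher by 2.04, a 4.12-fold difference. Fads2 and Fads1, the neighbouring desaturases of polyunsaturated fatty acids on chromosome 19, were higher by 0.68 and 0.37. Fads2 was at 50.3 RPKM in PC iPSC 5 and at 27.2, 32.9 and 31.2 in PC iPSC 13, control iPSC 3 and control iPSC 7. Its level in PC iPSC 13 was the lowest of the 4 lines, so the PC lines bracketed the controls, and the group difference was 0.24 (SE 0.26, adjusted p = 0.963). Dgat2 on chromosome 7 was lower in PC iPSC 5 by 0.65.

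**Figure D3:**
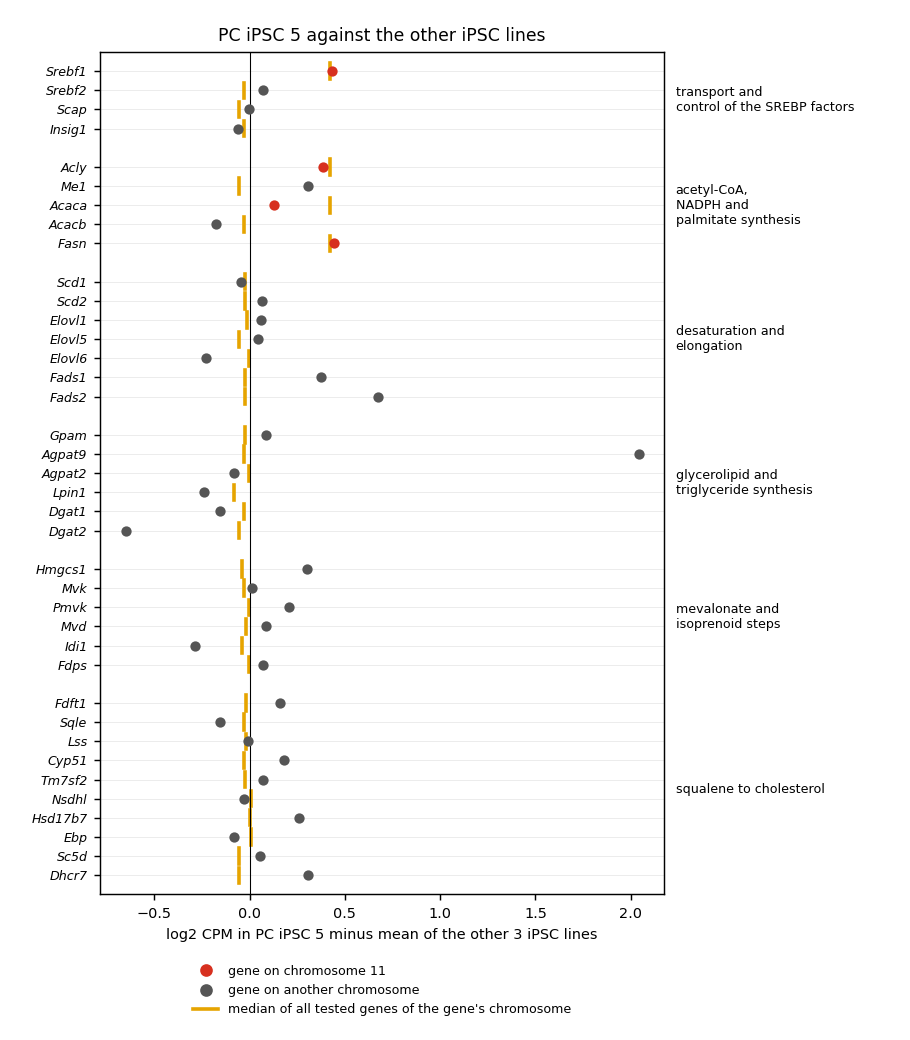
log2 CPM (counts scaled to library size) of each member in PC iPSC 5 minus the mean of the other 3 iPSC lines (points), with the median over all tested genes of its chromosome (vertical bars). Of the 4 chromosome 11 members (red), 3 lie close to a bar at 0.42 and Acaca below it, while Agpat9 (2.04) and Fads2 (0.68) lie far from bars near 0.

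The second comparison set the 4 iPSC lines against ESC. There is 1 ESC library, so its spread is assumed to equal that of the lines. Of 16435 genes, 10.4% passed, 4.71% higher and 5.71% lower in iPSC. Of the 38 members 4 passed, 1 higher and 3 lower, a share close to that of all genes. ESC lay outside the range of the 4 lines for 25 of 38 members, against 66.5% of all genes, with the lines above ESC in 13 and below it in 12. The median log2 difference over the members, iPSC minus ESC, was −0.06 against 0.03 over all genes. With these bulk libraries, fewer cells of a type and less RNA per cell cannot be told apart.

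Both SREBP genes were lower in iPSC. Srebf1, whose protein mainly drives fatty acid genes, was at 37.0 RPKM in ESC and at 15.9, 14.7, 21.8 and 16.1 in control iPSC 3, control iPSC 7, PC iPSC 5 and PC iPSC 13. Every line was below ESC, and the log2 difference was −1.16 (SE 0.17, edgeR adjusted p = 0.0158), 2.24-fold lower. Srebf2, whose protein mainly drives cholesterol genes, was at 99.1 RPKM in ESC and at 60.3, 55.1, 62.9 and 58.2 in the lines in that order. All 4 lines lay close together and below ESC, with a log2 difference of −0.79 (SE 0.14, adjusted p = 0.0227), 1.73-fold lower. Insig1 was at 48.9 RPKM in ESC and 38.8 to 41.2 in the lines, a difference of −0.32 that did not pass (SE 0.14, adjusted p = 0.168). Scap was at 13.05 RPKM in ESC and 14.4 to 15.3 in the lines (adjusted p = 0.485). Using limma on log RPKM in place of edgeR, neither SREBP gene passed, with an adjusted p of 0.0664 to 0.0795.

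Srebf1 also lies on the chromosome that was high in ESC. The median log2 difference of ESC from the 3 lines other than PC iPSC 5 was 0.41 over chromosome 11, where 75.3% of genes were higher in ESC. Srebf1 was higher in ESC by 1.27 in this measure, above 88.8% of the chromosome's genes and 0.87 above its median. Acly was higher by 0.49, Fasn by 0.31 and Acaca by 0.03, Acly above and the other two below the chromosome's median. The part of the chromosome in the Srebf1 difference was not tested. Exons of Srebf1 share 109 bases with Rai1 on the opposite strand.

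At the end of cholesterol synthesis 2 enzymes moved in opposite directions. Dhcr7, which makes cholesterol from 7-dehydrocholesterol, was at 30.4 RPKM in ESC and at 18.8, 17.4, 21.8 and 15.1 in control iPSC 3, control iPSC 7, PC iPSC 5 and PC iPSC 13. All lines were below ESC, by a log2 difference of −0.78 (SE 0.19, adjusted p = 0.0491), 1.72-fold lower. This call was at the threshold: it was lost with scaling by upper quartile (0.0544), by library totals (0.0750), with a floor on mean RPKM (0.0627) and with limma (0.139 and 0.141). Ebp, the sterol isomerase a few steps earlier, was at 8.82 RPKM in ESC and at 18.96, 19.4, 18.4 and 17.9 in the lines in the same order. The lines lay close together and all above ESC, by a log2 difference of 1.04 (SE 0.17, adjusted p = 0.0196), 2.05-fold higher. With limma the Ebp call was also lost (adjusted p 0.0593 and 0.0750). Ebp is on the X chromosome, whose genes had a median of −0.25 in ESC against the 3 lines. Ebp had −1.06 and the other X-linked member, Nsdhl, −0.18 in that measure.

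Agpat2, an acyltransferase of phosphatidic acid synthesis, is named here after its values were seen, because its adjusted p was 0.0501. It was at 15.0 RPKM in ESC and at 23.9, 24.1, 25.3 and 29.9 in control iPSC 3, control iPSC 7, PC iPSC 5 and PC iPSC 13. All lines were above ESC, by a log2 difference of 0.74 (SE 0.18), and the gene passed in 10 of 13 other settings, among them each of the 5 that left out 1 library. Hsd17b7 was at 3.72 RPKM in ESC and at 4.96 to 8.65 in the lines, a difference of 0.97 (SE 0.28, adjusted p = 0.0755) that passed with DESeq2 and without control iPSC 3 or 7. Hsd17b7 was at 22.4 RPKM in MEF, and the sum of the fibroblast markers was 663.5 RPKM in ESC and 1039 to 1768 in the lines. Their part was not tested.

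In the glycerolipid steps no member passed by edgeR with all libraries. An unadjusted p below 0.05 was found for 3 of 6, against 29.8% of all genes. Lpin1 was at 15.2 RPKM in ESC and 9.12 to 12.4 in the lines, with −0.63 (SE 0.17, adjusted p = 0.0652). Without control iPSC 3 it was −0.76 and passed (adjusted p = 0.00786). Dgat2 was at 1.24 RPKM in ESC and 1.83 to 3.02 in the lines, with 0.99 (SE 0.39, adjusted p = 0.146). Gpam was at 4.93 RPKM in ESC, inside the range of 3.95 to 4.96 in the lines. Agpat9 was at 4.82 RPKM (387 reads) in ESC, below PC iPSC 5 and above the other 3 lines. Its difference was −0.92 with all lines (SE 0.59, adjusted p = 0.338) and −1.58 without PC iPSC 5, where it passed. Without control iPSC 7 it was −0.99 and passed too.

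None of the 5 members of acetyl-CoA, NADPH and palmitate synthesis and none of the 7 of desaturation and elongation passed against ESC, by edgeR or DESeq2. By edgeR 1 and 3 of them had an unadjusted p below 0.05, which 29.8% of all genes had. Without control iPSC 3, Me1 passed (0.61, adjusted p = 0.0495). Acly was at 126.3 RPKM in ESC and 85.1 to 124.0 in the lines, with −0.39 (SE 0.19, adjusted p = 0.222). Fasn was at 50.9 RPKM in ESC, within its range of 38.4 to 59.3 in the lines, and Acaca at 15.0, within 13.7 to 16.9. Me1 was at 17.5 RPKM in ESC and 20.8 to 31.5 in the lines, with 0.55 (SE 0.19, adjusted p = 0.110). Scd1 was at 42.6 RPKM in ESC and 29.7 to 37.98 in the lines, with −0.42 (SE 0.16, adjusted p = 0.136), and Fads2 was at 41.1 in ESC, within the range of the lines. Elovl6 and the elongase Elovl1 of very long chains were above ESC in every line, by 0.40 (adjusted p = 0.164) and 0.54 (adjusted p = 0.136).

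Of the 6 mevalonate genes, all lines were above ESC in 1 and below it in 2. Of the 10 genes from squalene to cholesterol, all lines were above ESC in 4 and below it in 4. ESC lay outside the range of the lines for 50% and 80% of these lists, against 66.5% of all genes. The levels of Fdps and Fdft1, which leads from farnesyl diphosphate to squalene, were below ESC in every line. Fdps was at 105.1 RPKM in ESC and at 77.8, 77.0, 84.0 and 77.0 in control iPSC 3, control iPSC 7, PC iPSC 5 and PC iPSC 13. Fdft1 was at 41.6 RPKM in ESC and 29.4 to 34.9 in the lines. Their differences were −0.45 and −0.45 (SE 0.13 and 0.14, adjusted p 0.0733 and 0.0897), and both passed when PC iPSC 5 was left out. Hmgcs1 was at 51.0 RPKM in ESC, within the range of 42.5 to 61.8 in the lines. Exons of Fdps and Fdft1 overlap those of other genes, by 1124 bases on the same strand and 774 on the opposite strand (Ctsb).

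In the lists of further pathway genes, of 12 tested genes of cholesterol synthesis and uptake 3 were lower in iPSC and none higher, among them the cholesterol esterifying enzyme Soat1 with a log2 difference of −1.91 and the lysosomal cholesterol exporter Npc1 with −1.27. Soat1 was at 18.9 RPKM in ESC and 3.79 to 6.23 in the lines, and Npc1 at 31.1 RPKM in ESC and 11.96 to 15.3 in the lines. Both genes were below ESC in every line. Of 21 genes of fatty acid synthesis and activation 2 were lower, the elongase Elovl7 with −2.16 and the acyl-CoA synthetase Acsl4 with −0.78. Of 13 genes of glycerolipid synthesis 2 were lower, the phosphatase Lpin3 with −0.90 and the acyltransferase Agpat4 with −0.78. These 6 named calls were lost with limma. In the cholesterol, fatty acid and glycerolipid lists 25%, 9.52% and 15.4% passed, against 10.4% of all genes. None of 12 regulators passed in edgeR, and 4 of them had an unadjusted p below 0.05, a share near that of all genes.

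**Figure D4:**
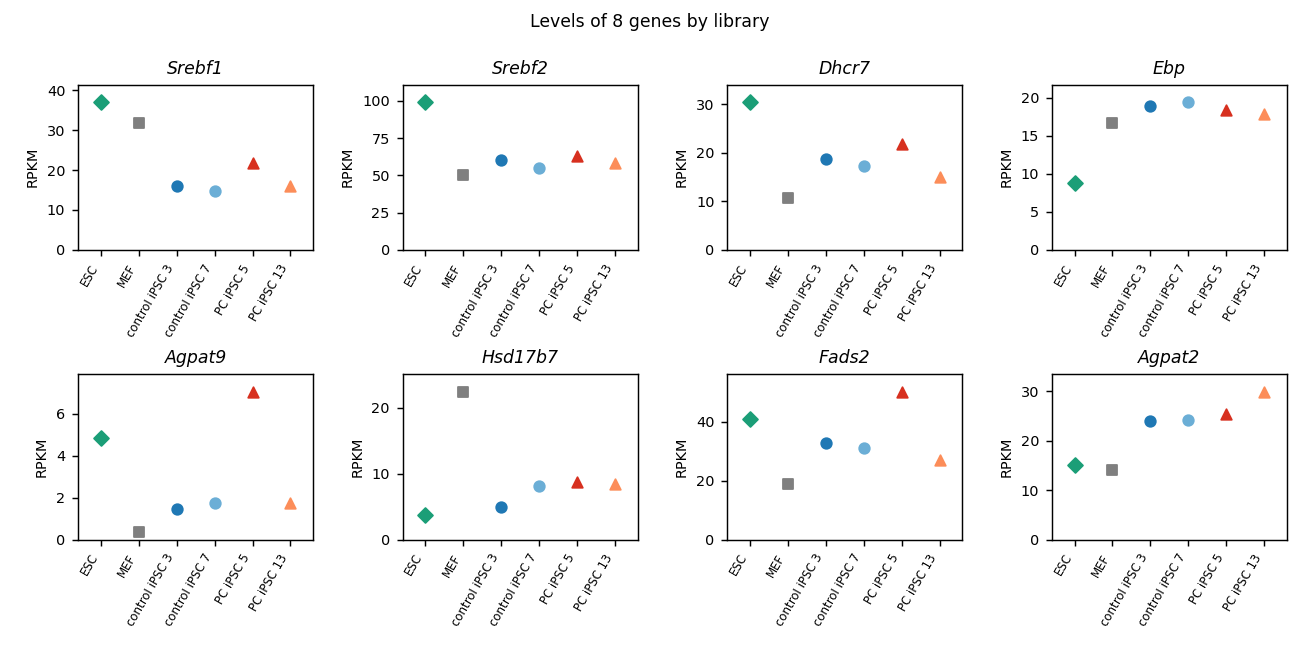
Level (RPKM, linear axis from 0) of 8 members in each library: ESC (diamond), MEF (square), control iPSC (circles) and PC iPSC (triangles). The 4 iPSC lines lie below ESC for Srebf1, Srebf2 and Dhcr7 and above it for Ebp, and PC iPSC 5 is highest for Agpat9 and Fads2.

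The third comparison set the 4 lines against MEF. MEF is 1 library, the one with Pou5f1 and Sox2 reads described above, so no value can be given without it. Of all genes 68.1% passed, 36.5% higher and 31.6% lower in iPSC, and of the members 25 of 38 passed, 15 higher and 10 lower. MEF lay outside the range of the lines for 36 of 38 members, against 89% of all genes. The median log2 difference over the members, iPSC minus MEF, was 0.30 against 0.16 over all genes. These shares are near the background. With a floor of 5 on mean RPKM, which kept 9044 genes, the differences of those genes shifted by −0.23 at the median. The balance of the member calls then turned to 7 higher and 13 lower, so the split by direction depends on this filter.

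The 4 largest differences in favour of iPSC were in single enzymes of fatty acid and triglyceride synthesis. Acacb, the carboxylase isoform at the mitochondrial membrane, was at 0.828 RPKM in MEF and at 8.98, 7.34, 7.32 and 7.68 in control iPSC 3, control iPSC 7, PC iPSC 5 and PC iPSC 13. It was higher in every line, by a log2 difference of 3.26 (SE 0.21, adjusted p = 3.1e-05), 9.59-fold. As a share of the summed level of both carboxylases, Acacb made up 6.31% in MEF, 28.4% in ESC and 30.2% to 36.4% in the lines. Agpat9 was at 0.348 RPKM in MEF, from 28 reads, and 1.43 to 7.03 in the lines, with 2.93 (SE 0.83, adjusted p = 0.0176), a call lost with limma. Elovl6 was at 11.7 RPKM in MEF and at 58.6, 55.9, 51.1 and 59.2 in the lines in the order above. It was higher in every line, with 2.29 (SE 0.19, adjusted p = 8.1e-05), 4.89-fold. Dgat2 was at 0.682 RPKM in MEF and 1.83 to 3.02 in the lines, with 1.92 (SE 0.42, adjusted p = 0.00619).

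The 4 largest differences in favour of MEF included 2 sterol enzymes. Hsd17b7 was at 22.4 RPKM in MEF and 4.96 to 8.65 in the lines, with −1.56 (SE 0.24, adjusted p = 0.00107), 2.95-fold lower in iPSC. Sc5d, a sterol desaturase, was at 29.8 RPKM in MEF and 12.1 to 15.8 in the lines, with −1.04 (SE 0.18, adjusted p = 0.00187). Me1 was at 74.5 RPKM in MEF and 20.8 to 31.5 in the lines, with −1.48 (SE 0.16, adjusted p = 0.000271). Elovl1 was at 41.3 RPKM in MEF and 14.5 to 19.2 in the lines, with −1.28 (SE 0.18, adjusted p = 0.000801). In all 4 genes MEF lay above every line. ESC was also below MEF in each, at 3.72, 13.2, 17.5 and 11.1 RPKM for Hsd17b7, Sc5d, Me1 and Elovl1.

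The control genes of the SREBP factors split. Srebf1 was at 31.8 RPKM in MEF, above every line, with −0.88 (SE 0.17, adjusted p = 0.00332). Scap was at 23.3 RPKM in MEF, also above every line, with −0.62 (SE 0.13, adjusted p = 0.00502). Insig1 was at 31.2 RPKM in MEF, below every line, with 0.39 (SE 0.14, adjusted p = 0.0462), a call lost in 5 of 12 other settings. Srebf2 was at 50.5 RPKM in MEF, below every line by a small margin (adjusted p = 0.173). Srebf1 therefore made up 38.6% of the summed level of both SREBP genes in MEF, 27.2% in ESC and 20.9% to 25.7% in the lines.

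Steps of 1 pathway did not go the same way. In the squalene to cholesterol list 3 genes were higher in iPSC than in MEF and 3 lower. Fdft1 was at 21.1 RPKM in MEF and 29.4 to 34.9 in the lines, with 0.59 (SE 0.15, adjusted p = 0.0123), and Dhcr7 at 10.7 and 15.1 to 21.8, with 0.80 (SE 0.21, adjusted p = 0.0142). Both calls were lost with the floor on mean RPKM. Of 6 mevalonate genes 3 were higher and none lower, with Fdps at 52.5 RPKM in MEF and 77.0 to 84.0 in the lines (0.61, SE 0.14, adjusted p = 0.00753). Hmgcs1 was at 65.9 RPKM in MEF, above every line, without passing (adjusted p = 0.109). In the glycerolipid list 4 genes were higher and 1 lower, the last being Gpam, at 6.86 RPKM in MEF (−0.55, SE 0.18, adjusted p = 0.0314), a call lost with limma at a pseudocount of 1 (0.0518) and without control iPSC 7 (0.0785). In desaturation and elongation 2 were higher and 3 lower. The shares called in these lists were, in the order given, 60%, 50%, 83.3% and 71.4%, against 68.1% of all genes.

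The transcripts of Scd1 and Scd2 share a run of up to 147 bases. The counts are labelled as unique reads, but how reads from that run were handled is not stated, so the split is uncertain. Scd1 was at 51.5 RPKM in MEF, with −0.63 against the lines (SE 0.16, adjusted p = 0.0104), and Scd2 at 152.0 in MEF and 122.4 to 135.3 in the lines (adjusted p = 0.196). Scd1 made up 25.7% of their summed level in ESC, 25.3% in MEF, 23.7% in control iPSC 3 and 18.9% to 19.7% in the other 3 lines. Acly was at 47.5 RPKM in MEF, below every line, with 1.09 (SE 0.21, adjusted p = 0.00341). Fasn, at 34.02 RPKM in MEF, and Acaca, at 12.3, were below every line without passing (adjusted p 0.121 and 0.0758).

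Besides Scd2 and Agpat2, the members outside the naming rule were the elongase Elovl5, the desaturase Fads1, the acyltransferase Dgat1, the mevalonate enzymes Mvk, Pmvk, Mvd and Idi1, and the sterol enzymes Sqle, Lss, Cyp51, Tm7sf2 and Nsdhl, and none of these 12 passed against ESC in edgeR. Against MEF, Tm7sf2, a sterol reductase, was at 4.30 RPKM in MEF and 11.2 to 13.8 in the lines, with 1.59 (SE 0.23). Pmvk, the phosphomevalonate kinase, was at 7.33 RPKM in MEF and 17.9 to 22.9 in the lines, with 1.48 (SE 0.23). Both were higher in every line. Mvd, which decarboxylates mevalonate diphosphate, was at 15.2 RPKM in MEF and 18.8 to 21.3 in the lines, with 0.41 (adjusted p = 0.0482), a call lost in 7 of 12 other settings. Elovl5 was at 50.01 RPKM in MEF and 23.2 to 28.5 in the lines, with −0.93 (SE 0.14), and Sqle, the squalene epoxidase, at 38.5 and 23.9 to 26.0, with −0.59 (SE 0.14). Both were lower in every line. The calls of Tm7sf2, Pmvk, Elovl5 and Sqle were kept in all 12 other settings. Fads1, Dgat1, Mvk, Idi1, Lss, Cyp51 and Nsdhl did not pass against MEF. Exons of Tm7sf2 share 532 bases with Vps51 on the same strand. Of the members given by library above, Agpat2, Lpin1 and Fads2 were also higher in iPSC than in MEF, with 0.90, 0.69 and 0.92, and the calls of Lpin1 and Fads2 were lost with the floor on mean RPKM. That of Fads2 was also lost with limma (adjusted p 0.102 and 0.0999).

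**Figure D5:**
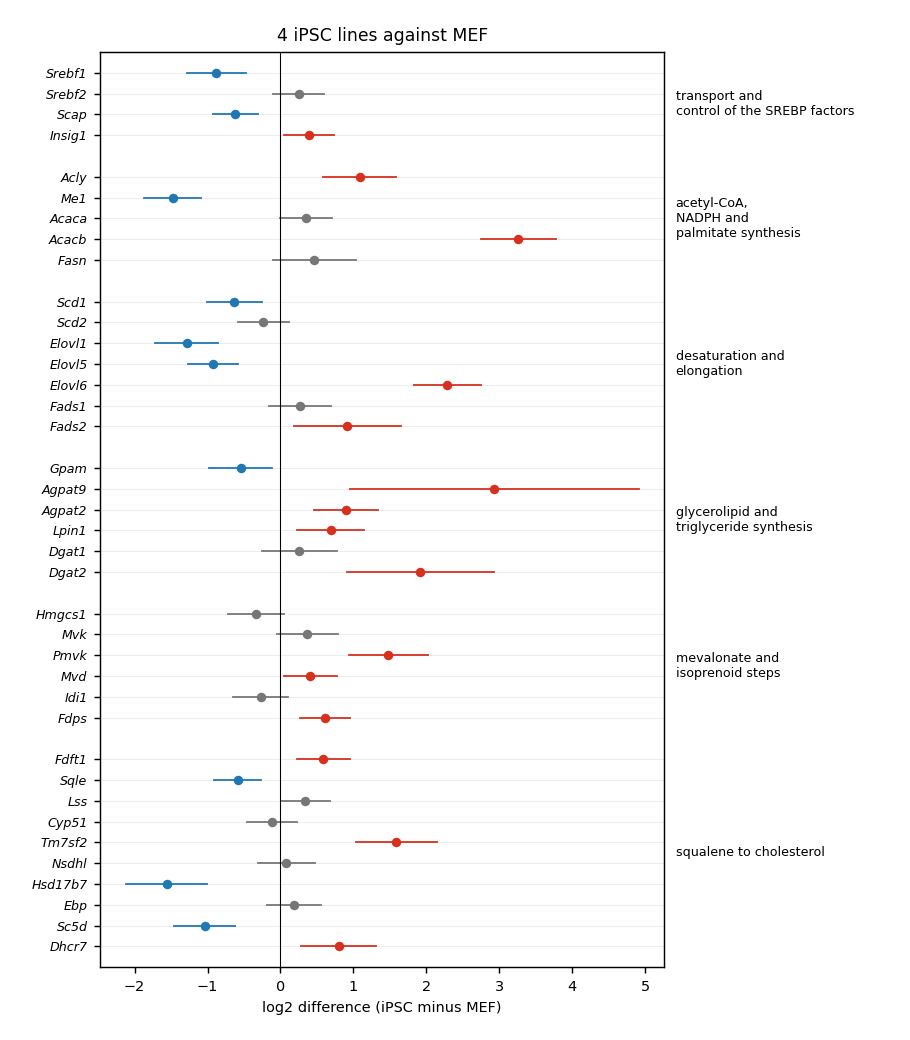
log2 difference of each member between the 4 iPSC lines and MEF (iPSC minus MEF) with 95% intervals from the edgeR fit; red marks members called higher and blue lower in iPSC at an adjusted p of 0.05. Acacb (3.26), Agpat9 (2.93) and Elovl6 (2.29) reach farthest to the right, Hsd17b7 (−1.56) and Me1 (−1.48) farthest to the left.

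In the wider lists 14 of 21 genes of fatty acid synthesis and activation passed against MEF, 10 higher and 4 lower in iPSC. In the fatty acid, glycerolipid, cholesterol and regulator lists 66.7%, 76.9%, 50% and 41.7% passed, against 68.1% of all genes. Elovl2, an elongase of polyunsaturated fatty acids, was at 0.0372 RPKM in MEF and 3.22 to 4.04 in the lines. Scd3 had no read in MEF and was at 1.04 to 2.02 RPKM in the lines. Both were higher in every line. Of 13 glycerolipid genes 4 were higher and 6 lower. Gpat2, an acyltransferase of the same reaction as Agpat9, had no read in MEF, 9.17 RPKM in ESC and 8.64 to 18.2 in the lines, while the lipid phosphatase Ppap2b was at 79.8 RPKM in MEF and 14.9 to 17.2 in the lines. Of 12 cholesterol genes 4 were higher and 2 lower, with the thiolase Acat2 at 12.4 RPKM in MEF and 1.32 higher in iPSC (adjusted p = 0.000435). Of 12 regulators 3 were higher and 2 lower, among them the SREBP protease gene Mbtps1, at 71.2 RPKM in MEF and −1.04 in iPSC (adjusted p = 0.000668).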

How the data were processed

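RNA was sequenced from 6 libraries. Per the file headers, the authors deposited a count of unique reads per gene, the gene length and an RPKM value. RPKM is the count scaled by gene length and library total. Counts summed to the header totals. The submitters' processing notes name CASAVA 1.8.2 and mm10. Which aligner and counting program made the counts, and whether strand was used, is not stated in these sources. In each library, 17 to 28 genes, 0 of them members, had an RPKM made with another length. Of the entries 41 have no symbol (0.00281% of reads); they were kept.

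Counts were tested with edgeR 4.0.16 (R 4.3.3) (quasi-likelihood F test, TMM scaling, default expression filter leaving 16435 genes), with 4 group means over all 6 libraries (2 residual and 4.75 prior degrees of freedom, coefficient of variation 0.18). ESC and MEF have 1 library each, whose spread is taken from the iPSC lines. The Benjamini-Hochberg adjustment ran over every tested gene, and genes with an adjusted p under 0.05 were called. Alternatives used DESeq2 1.42.0, limma 3.58.1 on log2(RPKM + 1) and log2(RPKM + 0.1), other scalings and filters, and left out libraries or chromosome 11. On simulated counts over 16435 genes, the test recovered 64% of 2-fold and 93% of 4-fold changes for PC against control iPSC, 47% and 93% against ESC, and 43% and 92% against MEF. Unchanged genes made up 11 of 168, 10 of 150 and 20 of 155 simulated calls (6.55%, 6.67% and 12.9%). The simulation changed 100 genes at each fold, all above a floor on mean reads in the iPSC lines. Genes with fewer reads, or as many changes as the data showed against ESC and MEF, were not simulated. The SE is the log2 difference divided by the square root of the F statistic.

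The members and lists were chosen with earlier results of these data known. Values by library are given for members past the threshold in PC against control iPSC or in iPSC against ESC, those on chromosome 11, the SREBP genes with Scap and Insig1, the first and last enzyme of each role, the 3 largest differences each way in PC against control, and the 4 each way against MEF. Other genes are named, up to 4 per list, among those past the threshold, and 1 gene is not reported here. Positions and promoters are from RefSeq (GRCm38.p6), and exon overlaps from GENCODE M21. Intervals cover the fit across these samples only.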

Additional observations from a re-analysis of the deposited data

Results flagged for a closer look

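In 4 of the 38 members 1 of the 4 iPSC lines lay far from the other 3, by Dixon's test at its 95% critical value. Among all 16435 tested genes 7.59% had such a line, and chance gives this in about 1 of 20 groups. Agpat9 was at 7.035 RPKM in PC iPSC 5 and 1.435 to 1.753 in the others, a gap of 0.943 of the whole range. Fdps was at 84.04 RPKM in PC iPSC 5 and 76.96 to 77.79 in the others. Lpin1 was at 12.41 RPKM in control iPSC 3 and 9.119 to 9.556 in the others. Hsd17b7 was at 4.964 RPKM in control iPSC 3 and 8.108 to 8.653 in the others.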

How the results depend on the processing

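No paired analysis was possible because the 2 groups with replicates share no line number (3 and 7 against 5 and 13). For PC against control iPSC, leaving out 1 library gave 0 to 309 genes and 0 to 1 members past the threshold (309 and 1, Agpat9, without control iPSC 7). Of the 13 members followed in this comparison, 4 turned sign: Scd1 (−0.30 to 0.0042, the last without control iPSC 3), Fasn (−0.18 without PC iPSC 5, to 0.38), Fads2 (−0.23 without PC iPSC 5, to 0.60) and Srebf2 (−0.0106 without control iPSC 7, to 0.12). Of 176 values of named members in this comparison 171 kept direction and side of the threshold.

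For iPSC against ESC, 953 of the 9044 genes kept by a floor of 5 on mean RPKM passed, against 1713 of 16435 without it. With limma 11 and 3 genes passed (pseudocounts 1 and 0.1), with 0 members higher and 0 lower in both, fewer than with edgeR. Leaving out 1 library gave 1781 to 2873 genes, 5 to 8 members, 2 to 4 higher and 3 to 6 lower. Members called higher were 3 with DESeq2, and 2 with upper quartile scaling, library totals, no filter or without chromosome 11. The median was −0.02 with library totals (−0.0184), −0.0199 and −0.0209 with limma, and −0.0901 to −0.0064 with 1 library left out. Of 294 values 264 kept their call, 11 lost it and 19 gained it. For iPSC against MEF, 6558 of the 9044 genes kept by the floor passed, against 11185 of 16435 without it. The floor gave 7 members higher and 13 lower (15 and 10 without it) and a median of 0.0315. DESeq2 gave a median of 0.2133 and limma with pseudocount 1 a median of 0.2576. Of 296 values 274 kept their call and 22 lost it. The cause of these changes was not tested. MEF was left out as an alternative chosen after seeing the data. With 1 ESC and 1 MEF library, the spread within those groups is unknown.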

Other observations

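Of 12 genes of lipid droplets and lipolysis, none of them a member, 1 passed against ESC in edgeR, 8.33% against 10.4% of all genes. Mgll, which cleaves monoacylglycerol, was at 0.296 RPKM in ESC, 10.8 in MEF and 0.925 to 1.26 in the iPSC lines. It was higher in iPSC than in ESC by a log2 difference of 1.84 (SE 0.29, adjusted p = 0.0191) and lower than in MEF, with −3.28 (SE 0.20). With limma the difference from ESC was as low as 0.69 on the log2(RPKM + 1) scale, and the call was lost there (adjusted p up to 0.0762) and kept in 10 of 12 other settings. Mgll was the 1 gene of the list past the threshold against ESC, while 8 passed against MEF, 3 higher and 5 lower in iPSC. The share against MEF was 66.7%, and that of all genes was 68.1%. Cidea, a droplet protein, had no read in MEF, 9.38 RPKM in ESC and 10.5, 11.9, 17.3 and 20.4 in control iPSC 3, control iPSC 7, PC iPSC 5 and PC iPSC 13. Both PC lines were above both control lines, but no gene of the list passed between PC and control iPSC in edgeR, and 1 had an unadjusted p below 0.05.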
